A study of Mus musculus with 12 samples.

Results

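Claudins are the membrane proteins that form the strands of tight junctions, the seals between neighbouring epithelial cells. This account follows 8 of them, the rows of the count table with the symbols Cldn1, Cldn2, Cldn3, Cldn4, Cldn6, Cldn7, Cldn12 and Cldn18, out of 30743 rows in all. They were taken by symbol, and all 8 had a row in each of the 12 libraries. The RNA came from sorted tumour cells of mouse lung, on a mixed BL6/129 strain background.

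The outer loops of a claudin meet those of claudins on the next cell, so the mix of claudins sets which ions and how much water pass between cells. Cldn18 is the characteristic claudin of the alveolar epithelium, where Cldn3 and Cldn4 are also made. Cldn2 forms pores for small cations and water and is best known from leaky epithelia such as kidney proximal tubule and gut crypts. Cldn6 is mainly a claudin of embryonic epithelium, and the stomach isoform of human CLDN18 and human CLDN6 are followed as surface targets in cancers.

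Lkb1-deleted libraries (3) came from KT;Lkb1f/f tumours, in which floxed alleles of Lkb1 (gene symbol Stk11), a kinase that activates the salt-inducible kinases (SIKs), are removed by Cre. Sik-targeted libraries (5) came from KT tumours with a Cre-dependent Cas9 allele at the H11 locus and guides titled sgSik1 (3 libraries) or sgSik1-3 (2 libraries), and share a genotype label that does not separate these titles. KT libraries (4) carry the KT background alone, which all groups share. KT is not spelled out in the labels. The KT group is tumour tissue and not normal lung. The range meant by sgSik1-3, the extent of editing and the origin of libraries from separate animals are not stated, so the p-values here speak only of library-to-library spread, part of which may be technical. Alternative names in the labels give lentiviral Cre for KT replicates 2 to 4 only.

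Total counts ranged from 3847760 to 13955181 per library, and levels are given as CPM, counts scaled to library size, with the sizes adjusted by the trimmed mean of M values (TMM). On that scale 3 counts, taken as the floor, are worth 0.164 to 0.853 CPM. Stk11 stood at 9.23 to 16.6 CPM in Lkb1-deleted libraries, against 31.0 to 44.7 CPM in KT. Sik3 stood at 8.74 to 21.0 CPM in Sik-targeted libraries, against 26.9 to 46.7 CPM in KT. Sik1 and Sik2 ran the other way: Sik1 stood at 105 to 514 CPM in Sik-targeted libraries, against 38.2 to 59.6 CPM in KT, and Sik2 at 12.7 to 28.1 CPM, against 4.72 to 10.4 CPM in KT. In Lkb1-deleted libraries Sik1 and Sik2 were also above KT, at 149 to 214 CPM and 17.4 to 31.8 CPM. Counts over a whole gene do not check editing at a guide's site. Markers of alveolar type 2 cells, the surfactant-making cells, summed to 27830 to 97140 CPM in KT and 15910 to 41080 CPM in Lkb1-deleted libraries. In sgSik1 they summed to 11640 to 33570 CPM and in sgSik1-3 to 10500 to 11070 CPM. With Sik targeting 5 of these 10 markers fell and 0 rose, beside 6.56% and 5.81% of all genes. With Lkb1 deletion 0 rose and 0 fell in the edgeR test, beside 0.611% and 0.552% of all genes. The part of these cells in the claudin differences from KT was not tested. Some libraries stood apart. Detected genes numbered 23582 and 23747 in KT replicates 2 and 3 but 14283 to 16533 elsewhere, and 1000 and 1066 of them were olfactory or vomeronasal receptor genes, of which other libraries had 14 to 58. In sgSik1 replicate 1 the 20% of genes with the highest transcript GC content lay 2.50 (log2) above the 20% with the lowest, against -0.64 to 0.46 in the other 11 libraries. In the same library 4 non-coding transcripts held 74.2% of all counts, the highest such share. Sums over macrophage markers were 21.1 to 56.6 CPM in Lkb1-deleted and Sik-targeted libraries and 188.4 to 1170 CPM in KT. Markers of airway club cells summed to 247.7 to 695.2 CPM outside KT and 754.3 to 4242 CPM in KT. Ciliated cell markers summed to 0.764 to 23.3 CPM outside KT and 37.1 to 71.1 CPM in KT. The part of these cell types in the differences from KT was not tested. Fewer cells of a type and less RNA per cell cannot be told apart in such bulk libraries.

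Per kilobase of exon, which allows levels of different genes to be compared, Cldn18 had the highest mean level of the claudins and Cldn1 the lowest. Averaged over the 12 libraries, the order was Cldn18 at 168 CPM per kb, Cldn3 at 68.0, Cldn2 at 34.1, Cldn7 at 19.1, Cldn4 at 12.9, Cldn12 at 6.84, Cldn6 at 5.85 and Cldn1 at 0.102. Cldn18 exceeded Cldn3 in 12 of 12 libraries and Cldn6 exceeded Cldn1 in 12 of 12. Within sgSik1, though, the ranges of Cldn18 and Cldn3 overlapped. The neighbours between them overlapped over all libraries: Cldn3 exceeded Cldn2 in 9 libraries, Cldn2 exceeded Cldn7 in 6, Cldn7 exceeded Cldn4 in 8, Cldn4 exceeded Cldn12 in 9 and Cldn12 exceeded Cldn6 in 8. The order was not the same in every group. Cldn2 averaged 75.1 ± 111 CPM per kb in Lkb1-deleted libraries (SD, n = 3), above Cldn3 at 59.6 ± 17.2, through replicate 1, where Cldn2 at 203 CPM per kb also exceeded Cldn18 at 137. In Lkb1-deleted replicates 2 and 3 Cldn2 was 6.75 and 15.2 CPM per kb, below Cldn3 at 70.0 and 69.0. In KT Cldn2 averaged 4.87 ± 1.23 (n = 4), below Cldn12 at 7.21 ± 0.370.

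**Figure D1:**
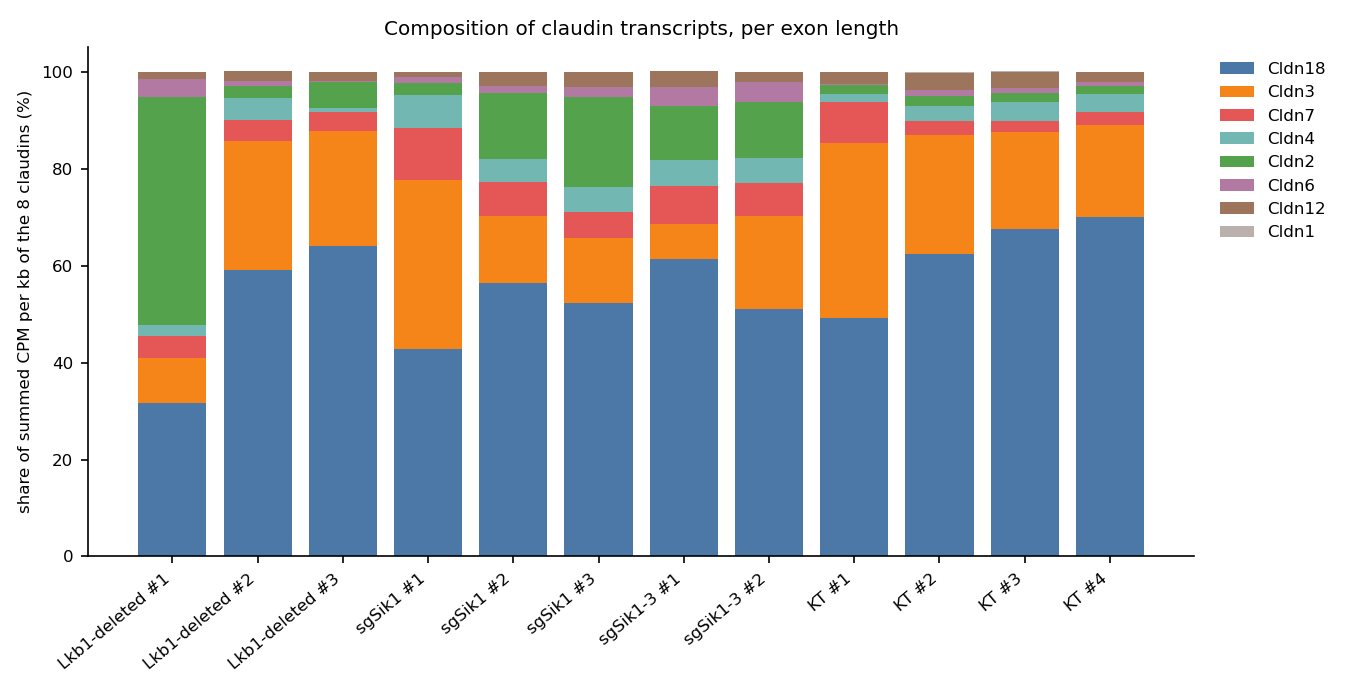
Share of each claudin in the summed CPM per kb of the 8 claudins (vertical axis, percent), 1 stacked bar per library. Cldn18 holds 31.7% to 70.0% of the sum, and Cldn2 ranges from 1.75% in KT replicate 1 to 47.0% in Lkb1-deleted replicate 1.

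Cldn2 (chromosome X, 139800828 to 139811386, plus strand, mm10) was the claudin that rose in both Lkb1-deleted and Sik-targeted cells. Its level was 675.5, 22.4 and 50.7 CPM in Lkb1-deleted replicates 1 to 3, 50.3, 120.6 and 149.4 CPM in sgSik1 replicates 1 to 3 and 94.97 and 132.5 CPM in sgSik1-3 replicates 1 and 2, against 18.1, 13.3, 12.4 and 21.0 CPM in KT replicates 1 to 4. Every Lkb1-deleted and Sik-targeted library lay above every KT library, but Lkb1-deleted replicate 2 only just, at 1.39 times the KT mean, while Lkb1-deleted replicate 1 stood at 41.7 times that mean. In Sik-targeted libraries the same ratio ran from 3.11 to 9.24, and all 5 stood above the highest KT value.

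In Lkb1-deleted cells Cldn2 averaged 249.5 ± 369 CPM (SD, n = 3), against 16.2 ± 4.09 CPM (n = 4) in KT. The log2 change was 3.95 (SE 0.85, adjusted p = 0.0408, edgeR quasi-likelihood test). Of 13575 genes tested in this comparison, 1.16% were called, 0.611% as higher and 0.552% as lower, and 13.1% had an unadjusted p under 0.05. The groups were fully apart in the higher direction in 6.38% of genes and in the lower direction in 8.3%. Cldn2 was the only member of the 7 tested that was called. The size rests on Lkb1-deleted replicate 1: without it the log2 change of Cldn2 was 1.19 and did not pass (adjusted p = 0.285). The Cldn2 call was also lost without KT replicate 1, 2, 3 or 4 (adjusted p = 0.120, 0.152, 0.162 and 0.079) and without any 1 of the 5 Sik-targeted libraries (adjusted p between 0.0501 and 0.0658), which enter through the shared spread, with log2 changes between 3.82 and 4.09. It held without Lkb1-deleted replicate 2 or 3 (4.51 and 4.45, adjusted p = 0.0148 and 0.0334).

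In Sik-targeted cells Cldn2 averaged 109.6 ± 38.6 CPM (SD, n = 5), against 16.2 ± 4.09 CPM (n = 4) in KT. The log2 change was 2.77 (SE 0.77, adjusted p = 0.0317), or 6.80-fold. Here 12.4% of all genes were called, 5.81% as higher and 6.56% as lower, and 28.5% had an unadjusted p under 0.05. The groups were fully apart in the higher direction in 7.32% of genes. Leaving out KT replicate 1, 2, 3 or 4 ended the Cldn2 call (log2 change 2.81, 2.67, 2.64 and 2.90, adjusted p = 0.0697, 0.104, 0.0988 and 0.0608). So did leaving out sgSik1 replicate 1 or 3, or sgSik1-3 replicate 1 or 2, with Cldn2 log2 changes of 2.94, 2.63, 2.81 and 2.69 (adjusted p = 0.0557, 0.0622, 0.0535 and 0.0595). The call held in the other 4 of 12 such runs (lowest adjusted p = 0.000275). These left out sgSik1 replicate 2 or 1 Lkb1-deleted library, which enters through the shared spread. The guide groups differed by less than their spread. Cldn2 averaged 113.7 ± 26.5 CPM in sgSik1-3 and 106.8 ± 51.0 CPM in sgSik1, a log2 difference of 0.08 (95% interval -1.89 to 2.05, a normal interval from the SE). Tested alone against KT, sgSik1 and sgSik1-3 gave Cldn2 changes of 2.76 and 2.83 that did not pass (adjusted p = 0.0933 and 0.120).

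Markers of gastric and gut epithelium were also high in 6 of the libraries with raised Cldn2, and their part in the result was not tested. Of 11 tested, 8 rose and 0 fell with Sik targeting, beside 5.81% and 6.56% of all genes. Gkn1 and Anxa10 lay around the floor in KT, at 0 to 0.401 and 0.157 to 1.12 CPM. Tff1 and Vil1 were low there, at 0.315 to 1.91 and 0.212 to 2.65 CPM. A marker that enters the fit through the groups where it is high can be called only as rising. These counts are therefore partly set by the filter. With Lkb1 deletion 0 of the 11 were called by edgeR (7 at an unadjusted p under 0.05). Of all genes 1.16% were called and 13.1% had an unadjusted p under 0.05. The 13 markers of that list summed to 1687, 36.6 and 60.1 CPM in Lkb1-deleted replicates 1 to 3, to 2570, 614.8 and 1595 CPM in sgSik1, and to 2052 and 2101 CPM in sgSik1-3, against 42.8, 59.1, 103.5 and 74.7 CPM in KT. The Lkb1-deleted library with the highest Cldn2 was thus the only 1 of its group above the KT range of this sum. Cdx2, an intestinal master regulator, was at 0 in all Lkb1-deleted and both sgSik1-3 libraries, at 0.568, 0 and 0.109 CPM in sgSik1 replicates 1 to 3, and at 0.642 CPM in KT replicate 3 and 0 in the other KT libraries. Hnf4a, a gut and liver transcription factor named here after its values were seen, stood at 195, 3.81 and 1.65 CPM in the Lkb1-deleted replicates and at 41.6 to 165 CPM in Sik-targeted libraries, against 2.38 to 10.4 CPM in KT. Endothelial and fibroblast marker sums ran the other way within the Lkb1-deleted group, at 1.34 and 1.70 CPM in replicate 1, 223.6 and 401 CPM in replicate 2 and 86.0 and 78.8 CPM in replicate 3. Cldn2 is X-linked. Summed Y-linked genes stood at 0.364, 70.6 and 49.95 CPM in Lkb1-deleted replicates 1 to 3, at 0.109 to 1.71 CPM in sgSik1 and at 70.4 and 49.2 CPM in sgSik1-3, against 0 to 0.424 CPM in KT, and their part in the result was not tested.

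Cldn6 (chromosome 17, 23679249 to 23682446, plus strand) was low in KT and stood higher in every Sik-targeted library, without passing the test. In sgSik1 it held 13.6, 6.55 and 8.84 CPM and in sgSik1-3 17.9 and 25.3 CPM, against 1.26, 4.02, 3.29 and 4.88 CPM in KT. No Sik-targeted library overlapped KT, and 7.32% of all genes were fully apart in this direction. Means were 14.5 ± 7.51 CPM (SD, n = 5) in Sik-targeted and 3.36 ± 1.55 CPM (n = 4) in KT. The log2 change was 2.10 (SE 0.68, adjusted p = 0.0544). The change passed in 7 of 20 alternatives, among them DESeq2 (adjusted p = 0.0134) and edgeR with only these groups fitted (adjusted p = 0.013). Its adjusted p ran up to 0.143 with single libraries left out and up to 0.317 in the other settings. Both sgSik1-3 libraries lay above all 3 sgSik1 libraries, with a log2 difference in Cldn6 of 1.17 between sgSik1-3 and sgSik1 (95% interval -0.40 to 2.73, adjusted p = 1). In that comparison 6.39% of genes were fully apart in this direction.

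With Lkb1 deletion Cldn6 was spread widely, at 28.3, 4.83 and 1.84 CPM in replicates 1 to 3. The first of these was the highest of all 12 libraries, and the other 2 lay within the KT range. Against KT the log2 change was 1.80 (SE 0.73, adjusted p = 0.281), and 0.04 without Lkb1-deleted replicate 1. Cldn2 and Cldn6 were therefore both highest in that library.

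Cldn4 and Cldn7 have GC-rich transcripts, like Cldn3, and sgSik1 replicate 1 was their highest library. Cldn4 (chromosome 5, 134945119 to 134946934, minus strand), a claudin that tightens the paracellular path and a receptor of Clostridium perfringens enterotoxin, held 76.2, 22.5 and 22.8 CPM in sgSik1 replicates 1 to 3 and 25.3 and 32.4 CPM in sgSik1-3, against 10.2, 10.4, 14.8 and 22.9 CPM in KT. Sik-targeted libraries reached down to 22.5 CPM, just inside the KT range. The log2 change of Cldn4 with Sik targeting was 1.29 (SE 0.49, adjusted p = 0.0972). With Lkb1 deletion Cldn4 stood at 17.2, 21.6 and 4.22 CPM, and its log2 change against KT was -0.01 (95% interval -1.08 to 1.06).

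Cldn4 and Cldn12 were the tested members whose Lkb1-deleted and Sik-targeted libraries did not overlap. For Cldn4 all 3 Lkb1-deleted values lay below all 5 Sik-targeted values. The log2 difference was -1.30 (SE 0.54), with an adjusted p of 0.342. In this comparison edgeR called 0.221% of genes, and 2.93% were fully apart in the lower direction. Of the 7 tested members edgeR called 0 and DESeq2 called 0, and 1 had an unadjusted p under 0.05, as did 12.7% of all genes.

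Cldn7 (chromosome 11, 69964779 to 69967885, plus strand), which binds EpCAM at lateral membranes, held 127, 36.0 and 25.5 CPM in sgSik1 replicates 1 to 3 and 39.7 and 45.1 CPM in sgSik1-3, against 50.8, 10.3, 9.31 and 19.7 CPM in KT. KT replicate 1 lay above 4 of the 5 Sik-targeted libraries. The change was 1.28 (SE 0.55, adjusted p = 0.138). In Lkb1-deleted libraries Cldn7 was 38.5, 22.4 and 22.2 CPM, with a log2 change of 0.31 against KT (95% interval -0.88 to 1.49).

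Cldn3 (chromosome 5, 134986214 to 134987472, plus strand), a sealing claudin, had the highest transcript GC content of the members, 62.7%. Its values were 271.1, 46.6 and 40.7 CPM in sgSik1 replicates 1 to 3 and 23.4 and 83.8 CPM in sgSik1-3, against 142.2, 58.2, 52.3 and 84.2 CPM in KT. Apart from sgSik1 replicate 1, the Sik-targeted values overlapped the 3 lower KT values or lay below them. The log2 change was 0.14 (95% interval -0.995 to 1.28). With Lkb1 deletion Cldn3 was 50.1, 88.2 and 86.9 CPM, inside or next to the KT range, with a log2 change of -0.17 (95% interval -1.46 to 1.13). The antisense gene Wbscr25 overlaps Cldn3, and reads of the pair cannot be told apart because the strand setting is not stated.

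**Figure D2:**
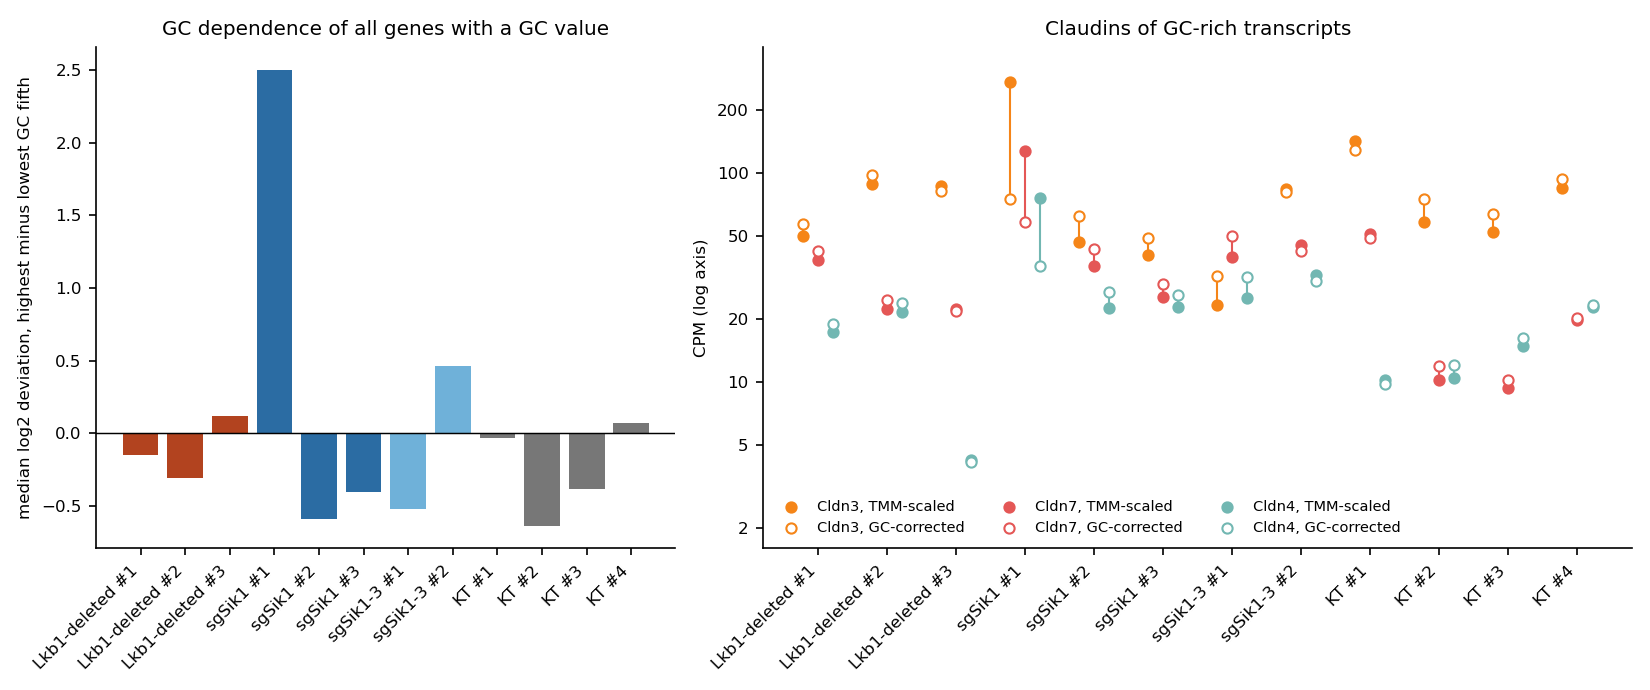
Left, the difference in median log2 deviation between the 20% of genes with the highest and the 20% with the lowest transcript GC content (vertical axis) in each library. Right, CPM of Cldn3, Cldn7 and Cldn4 (log axis) with TMM scaling alone (filled) and after a per-library GC correction (open). The correction takes Cldn3 in sgSik1 replicate 1 to 75.4 CPM and moves other libraries less.

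After a per-library correction for GC content, sgSik1 replicate 1 held 75.4 CPM of Cldn3, 58.5 CPM of Cldn7 and 35.7 CPM of Cldn4. The highest Cldn3 level was then in KT replicate 1, at 129 CPM, while Cldn7 and Cldn4 remained highest in sgSik1 replicate 1, now close to sgSik1-3 replicate 1 (50.1 and 31.8 CPM). For Cldn18 and Cldn12, whose transcripts hold less GC, the same correction raised that library to 1486 and 51.6 CPM, the highest of the 12. Corrected Cldn4 was 26.1 to 35.7 CPM in Sik-targeted libraries and 9.82 to 23.5 CPM in KT, which then did not overlap. The share of all genes apart after the correction was not counted. The log2 changes of Cldn2 barely moved under the correction (4.07 with Lkb1 deletion and 2.86 with Sik targeting).

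Cldn18 and Cldn12 varied least among the tested members. Cldn18 (chromosome 9, 99689461 to 99717267, minus strand) was 610.5, 692.4 and 827.9 CPM in Lkb1-deleted libraries, 1172, 667.5 and 564.4 CPM in sgSik1 and 705.9 and 788 CPM in sgSik1-3, against 682.4, 523.9, 626.2 and 1104 CPM in KT. Only sgSik1 replicate 1 lay outside the KT range. Log2 changes against KT were -0.05 with Lkb1 deletion (95% interval -0.76 to 0.66) and 0.09 with Sik targeting (95% interval -0.54 to 0.71). Cldn18 has 2 RefSeq starts, which make lung and stomach forms, and counts per gene do not tell them apart. A further antisense gene, Gm16004, overlaps it.

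Cldn12 (chromosome 5, 5489537 to 5514958, minus strand), an atypical claudin without the usual binding motif for ZO proteins, had an SD of 0.22 log2 units over the 12 libraries and Cldn18 0.35. The median was 0.74 over all genes tested by genotype, which include genes of low count. Low counts widen the spread on this scale. The level of Cldn12 was 27.0, 21.7 and 21.1 CPM in Lkb1-deleted libraries, 29.3, 32.5 and 30.7 CPM in sgSik1, 34.3 and 28.8 CPM in sgSik1-3, and 32.4, 28.6, 30.4 and 30.6 CPM in KT. All 3 Lkb1-deleted values lay below every other library. The log2 change with Lkb1 deletion was -0.39 (SE 0.27, adjusted p = 0.603) against KT and -0.42 (SE 0.26, adjusted p = 0.533) against Sik-targeted, so this shift, 23.3 ± 3.22 CPM against 30.5 ± 1.56 CPM in KT, did not pass, and its direction against KT is one in which 8.3% of all genes were fully apart. After the GC correction Cldn12 overlapped, with 27.6 CPM in Lkb1-deleted replicate 1 and 24.03 CPM in KT replicate 2.

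Cldn1 (chromosome 16, 26356642 to 26371841, minus strand), a barrier claudin of skin and airway, had 0, 3 and 7 counts in Lkb1-deleted libraries, 0, 1 and 2 in sgSik1, 1 and 1 in sgSik1-3, and 3, 25, 11 and 2 in KT. KT replicates 2 and 3, which hold most of the counts, are the libraries with many more detected genes. It was too low to be tested by genotype. It entered the fit by title with its highest counts in KT, so its fitted changes there are not given.

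**Figure D3:**
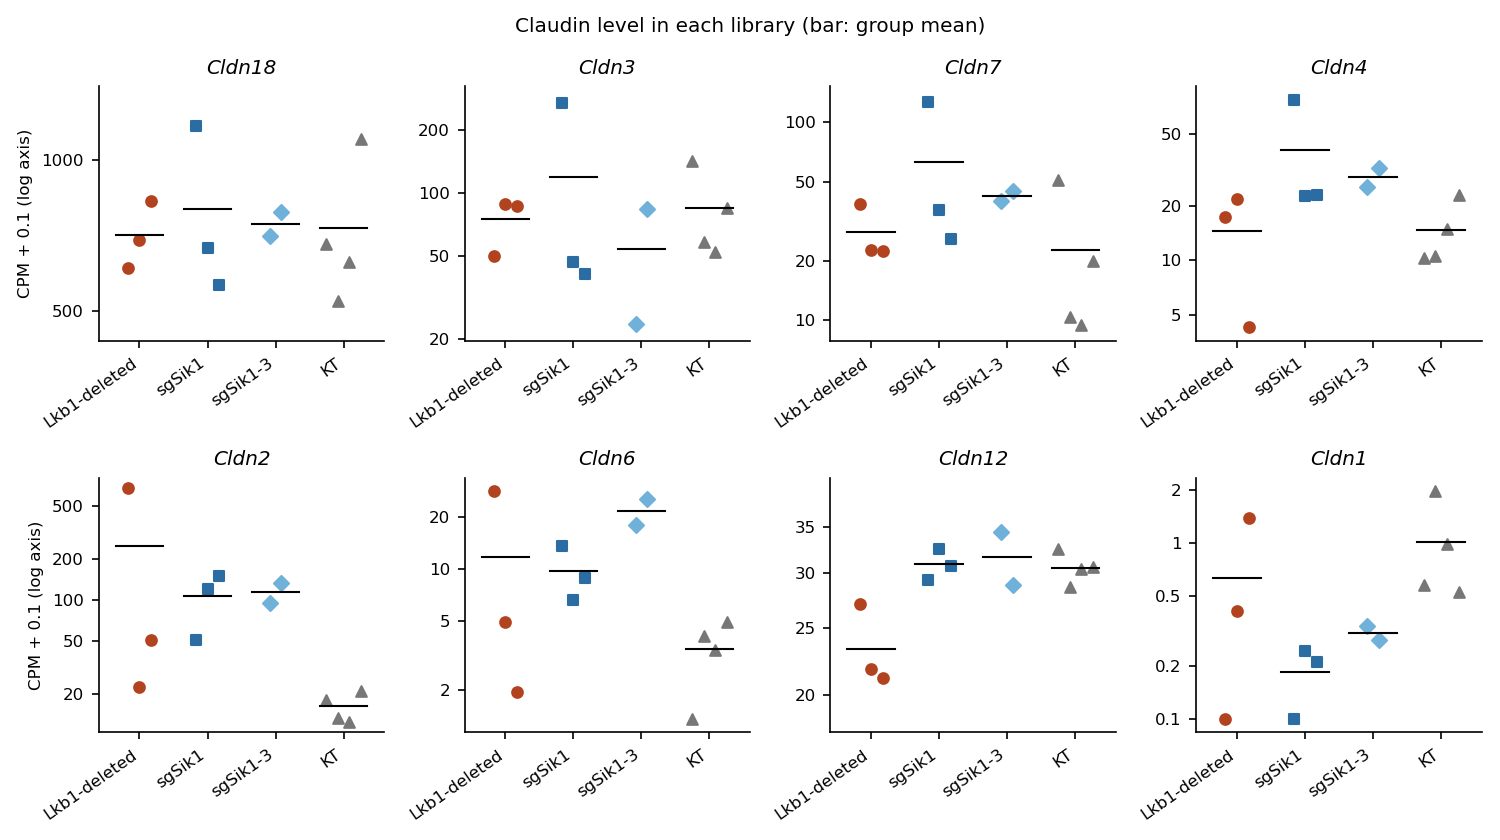
CPM plus 0.1 on a log axis for each claudin, by group (Lkb1-deleted, sgSik1, sgSik1-3, KT), with 1 point per library and a bar at the group mean. Cldn2 lies above KT in all 8 other libraries, and Cldn18 and Cldn12 show the narrowest ranges.

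Across the tested members the median log2 change was -0.01 with Lkb1 deletion, beside -0.04 for all genes tested. There 3 of 7 members were positive, and 2 of 7 had an unadjusted p under 0.05, as did 13.1% of all genes. With Sik targeting the median was 1.28, beside -0.03 for all genes. An unadjusted p under 0.05 was reached by 4 of 7 members and by 28.5% of all genes. All 7 members were positive, but Cldn3, at 0.14, turned to -0.59 with GC-corrected offsets and to -0.31 with limma-voom, and Cldn12 lay at 0.03. In the fit by title, 0 of 8 members were called in sgSik1 against KT (5 at an unadjusted p under 0.05, Cldn1 among them, and 1 called by DESeq2). Of all genes 3.84% were called and 24.4% had an unadjusted p under 0.05. Likewise 0 of 8 were called in sgSik1-3 against KT (2 at an unadjusted p under 0.05, 2 called by DESeq2), beside 2.89% of all genes called and 20.5% at an unadjusted p under 0.05. Between sgSik1-3 and sgSik1 the edgeR test called 0 of 8 members and 0% of all genes, where 528 genes (3.45%) had an unadjusted p under 0.05 and DESeq2 called 6. These comparisons share their KT libraries.

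**Figure D4:**
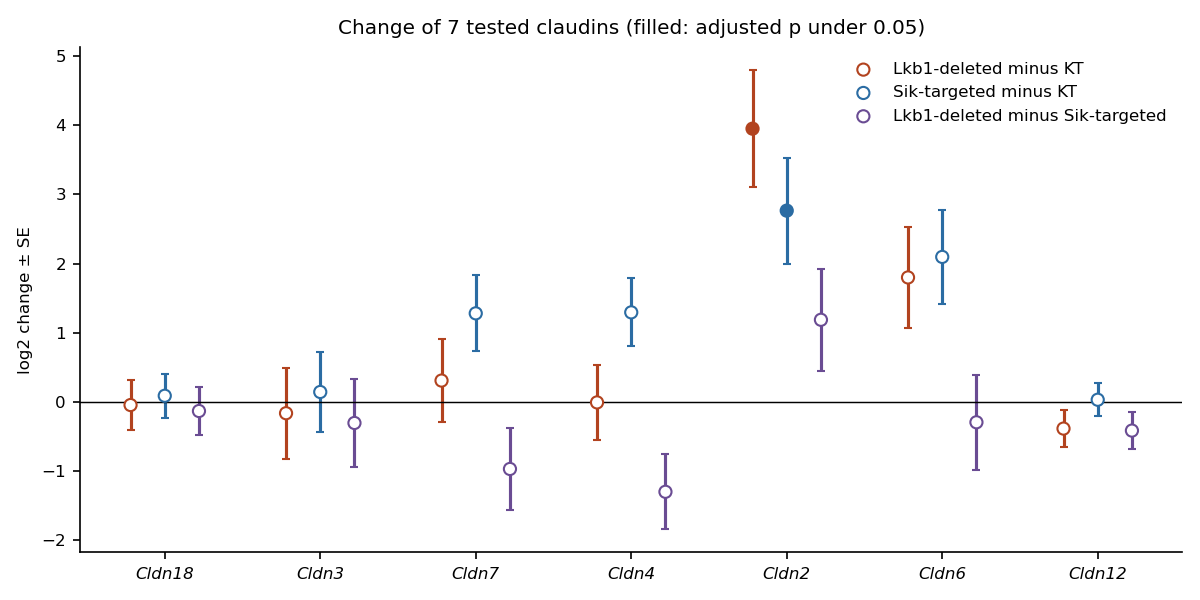
Log2 change of the 7 tested claudins with its SE (vertical axis) in 3 comparisons, filled where the adjusted p was under 0.05. Only Cldn2 is filled, at 3.95 for Lkb1-deleted minus KT and 2.77 for Sik-targeted minus KT.

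To show which letters sit at the starts of the members that stood highest above KT, the promoter windows of Cldn2, Cldn6, Cldn4 and the second start of Cldn7 are given from RefSeq (GRCm38.p6). Each holds 250 bases before and 50 after the start, 5′ to 3′ on the strand of the gene. Capitals mark TATAAA in Cldn2, the cAMP response element TGACGTCA (CRE) in Cldn6 and Cldn7, and the AP-1 motif TGANTCA in Cldn4. The windows lie at chrX:139800558-139800857, chr17:23679115-23679414, chr5:134946885-134947184 and chr11:69965171-69965470.
Cldn2: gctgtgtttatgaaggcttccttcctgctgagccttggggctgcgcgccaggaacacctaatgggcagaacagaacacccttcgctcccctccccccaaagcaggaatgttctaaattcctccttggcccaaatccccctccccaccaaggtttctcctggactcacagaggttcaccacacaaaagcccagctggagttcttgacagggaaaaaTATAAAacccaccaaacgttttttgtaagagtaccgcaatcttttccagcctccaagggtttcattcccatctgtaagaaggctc
Cldn6: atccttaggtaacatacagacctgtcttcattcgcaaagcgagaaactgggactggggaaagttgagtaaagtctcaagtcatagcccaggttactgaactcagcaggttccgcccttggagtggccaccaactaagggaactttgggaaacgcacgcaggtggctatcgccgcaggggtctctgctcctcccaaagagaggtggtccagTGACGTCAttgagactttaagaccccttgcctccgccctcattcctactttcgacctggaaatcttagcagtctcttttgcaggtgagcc
Cldn4: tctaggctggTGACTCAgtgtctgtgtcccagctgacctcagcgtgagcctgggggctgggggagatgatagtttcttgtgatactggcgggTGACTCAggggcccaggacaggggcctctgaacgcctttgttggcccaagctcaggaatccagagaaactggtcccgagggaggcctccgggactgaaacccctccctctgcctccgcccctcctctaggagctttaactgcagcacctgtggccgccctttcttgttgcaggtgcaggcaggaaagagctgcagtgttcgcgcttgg
Cldn7: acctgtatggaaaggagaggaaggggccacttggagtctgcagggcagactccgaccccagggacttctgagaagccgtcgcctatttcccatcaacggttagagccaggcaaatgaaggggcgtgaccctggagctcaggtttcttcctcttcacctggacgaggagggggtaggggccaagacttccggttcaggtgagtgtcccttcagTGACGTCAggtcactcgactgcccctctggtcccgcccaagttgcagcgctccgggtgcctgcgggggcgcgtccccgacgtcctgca

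CREB, the factor that binds a CRE, is activated by CRTC coactivators that SIKs hold back. The full CRE, searched on both strands, was present in the Cldn6 window at position -40 and in the Cldn7 window at -38 (the start base is 0), and in 1.79% of 32851 promoters of the same length. The Cldn2 window held TATAAA at -35, found in 13.6% of promoters, and GGAATG, a TEAD motif found in 14.7%, at -147 and 27. GGAATG also stood in Cldn6 at -1 and in the first Cldn7 window at -70. The Cldn4 window held TGANTCA at -240 and -158, found in 7.81%. A further Cldn7 window, at its other start, held no CRE, nor did the windows of the other members. The half-site TGACG, which the full CRE contains, was in 20.8% of promoters and stood in Cldn3 at -91 and in the first Cldn18 window at -68 and -54. The E-box CAGGTG, in 20.2% of promoters, stood in Cldn3 at 31, in Cldn4 at -14 and 11, in Cldn6 at -93 and 40 and in the second Cldn7 window at -97 and -57. CAAGTG, a core of NKX2-1 sites in 13.6%, stood in Cldn1 at -207, in the second Cldn7 window at -223 and in the second Cldn18 window at -98, and the GRHL motif AACCNGGTT (0.271%) was in no window of a member. The motifs were chosen after the windows had been read, so these matches only describe the letters.

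Partners of the claudins at the junction were not called with Lkb1 deletion, where edgeR called only 1.16% of all genes. Of 23 tested tight junction partners, among them occludin (Ocln), ZO-1 (Tjp1) and cingulin (Cgn), 0 rose and 0 fell in the edgeR test (2 at an unadjusted p under 0.05), with a median log2 change of 0.17. Ocln, Tjp1 and Cgn had log2 changes of 0.61, -0.03 and 0.10. Larger changes that did not pass were those of the junctional adhesion molecules F11r (2.70, adjusted p = 0.198) and Jam2 (1.93, adjusted p = 0.109). Of 14 adherens junction and EpCAM partners, 0 were called (1 at an unadjusted p under 0.05). Of all genes 13.1% had an unadjusted p under 0.05 with Lkb1 deletion. With Sik targeting 2 of the 23 rose and 1 fell, a share near the 12.4% of all genes called. Jam2 rose by 2.31 (31.2 ± 17.4 CPM in Sik-targeted, against 6.30 ± 2.39 CPM in KT, adjusted p = 0.0116). Lsr, the angulin of tricellular junctions, rose by 1.16 (69.6 ± 24.9, against 31.1 ± 8.10 CPM in KT, adjusted p = 0.0419). Esam, best known from endothelium, fell by 1.64 (7.10 ± 5.32, against 22.4 ± 10.2 CPM in KT, adjusted p = 0.0417). Ocln, Tjp1 and Cgn had log2 changes of 0.40, 0.43 and -0.43 there and did not pass. Cldn7's partner Epcam had a log2 change of 0.76 (adjusted p = 0.193) with Sik targeting. There 0 of the 14 adherens junction and EpCAM partners were called (5 at an unadjusted p under 0.05, beside 28.5% of all genes).

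Transcription factors listed as acting on claudin or epithelial genes included several that rose. Of 20 tested, 7 rose and 0 fell with Sik targeting, where 5.81% of all genes rose, with a median log2 change of 1.146, beside -0.03 for all genes. Fosl1, an AP-1 subunit, stood at 35.7 ± 48.3 CPM in Sik-targeted and 0.317 ± 0.141 CPM in KT (log2 change 6.72, adjusted p = 0.00162). Its KT values, 0.157 to 0.447 CPM, lay around the floor, and it entered the fit through the other groups. The size of its log2 change, here and with Lkb1 deletion, is therefore uncertain. Fosl1 could be called only as rising, so its place in both counts says little about direction. Klf5 changed by 1.63 (adjusted p = 0.005), the epithelial factor Elf3 by 2.36 (adjusted p = 0.00883) and Klf4 by 2.63 (adjusted p = 0.0113). Hnf4a (log2 change 4.09, adjusted p = 0.0284) was counted both here and among the gastric and gut markers. With Lkb1 deletion, where 0.611% of all genes rose, 3 rose and 0 fell, with a median of 0.67: Fosl1 at 16.99 ± 5.39 CPM (log2 change 5.67, adjusted p = 0.0179), Klf4 by 3.16 (adjusted p = 0.0322) and Klf5 by 1.47 (adjusted p = 0.0433). The lung lineage factor Nkx2-1 had log2 changes of 0.02 with Lkb1 deletion and 0.14 with Sik targeting.

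Of 14 kinases, trafficking proteins and ubiquitin ligases that act on claudins, 3 rose and 0 fell with Sik targeting, beside 5.81% and 6.56% of all genes: the receptor kinase Epha2 (log2 change 2.38, adjusted p = 0.00624), and the ubiquitin ligases Lnx2 (1.45, adjusted p = 0.00841) and Lnx1 (1.49, adjusted p = 0.0326). With Lkb1 deletion 0 of the 14 were called by edgeR (4 at an unadjusted p under 0.05), beside 1.16% and 13.1% of all genes. Between Lkb1-deleted and Sik-targeted libraries 0 genes of these 4 lists were called, beside 0.221% of all genes.

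Among the other claudins 17 of 21 listed symbols had a row, and 5 were tested by genotype. A mean of at least 1 CPM was reached by Cldn25 (17.2 CPM) and Cldn23 (1.89 CPM). Cldn25, a symbol that RefSeq lists as an older name of 2 different genes, stood at 43.1, 20.2 and 16.2 CPM in Lkb1-deleted libraries and 11.9 to 20.6 CPM in Sik-targeted libraries, against 10.8 to 16.5 CPM in KT. Its log2 change with Lkb1 deletion was 1.08 (adjusted p = 0.196). Cldn23 had log2 changes of 1.37 with Lkb1 deletion and 1.41 with Sik targeting (adjusted p = 0.589 and 0.302). Cldn8, also named after its values were seen, had 3, 0 and 0 counts in Lkb1-deleted replicates 1 to 3, 0, 2 and 0 in sgSik1 and 0 and 1 in sgSik1-3, against 12, 6, 11 and 9 in KT. Every Lkb1-deleted library lay below every KT library in Cldn8 CPM, and 8.3% of all genes were fully apart in this direction. Counts of Cldn8 outside KT were at or below the floor of 3. It entered the fit with its highest counts in KT, so its fitted changes, neither of which passed, are not given. Cldn9, which lies beside Cldn6 on chromosome 17 and was named after its values were seen, had 7 counts in Lkb1-deleted libraries, all in replicate 1, and 14 counts in 4 of 5 Sik-targeted libraries, against 0 in KT. Scaled by library size and set against a floor of 3 counts over the KT group, those totals were 3.69-fold in Lkb1-deleted and 4.46-fold in Sik-targeted libraries. These ratios leave out the counting error of the totals and the spread between libraries. The Lkb1-deleted ratio rests on replicate 1 alone.

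Likeness between patterns was measured as the root mean square (RMS) difference of mean-centred log2 CPM over the 12 libraries, among 10198 genes with a mean of at least 2 CPM. The genes closest to Cldn2 were Dnajb1 (RMS 0.80), Slc35d1 (0.84) and Spata13 (0.84), a loose match beside its own SD of 1.67. Cldn6 was nearest to Chst1 (0.48), Tspan7 (0.49) and Emp1 (0.49). Cldn4 was nearest to Fblim1 (0.34), Cldn7 to Avpi1 (0.31), Cldn3 to Gpaa1 (0.31), Cldn18 to Foxk2 (0.18) and Cldn12 to Cflar (0.13). Cldn18 and Cldn12 vary little themselves (SD 0.34 and 0.21), so small RMS values say little about likeness there. Among the members, Cldn2 lay nearest to Cldn6 (1.10), and Cldn4 and Cldn7 were 0.88 apart, beside SDs of 0.96 and 0.97. All points share libraries, depth and GC dependence.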

How the data were processed

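RNA was sequenced from sorted lung cancer cells in 12 libraries. Per the labels' protocols, tumours were digested at 37 C for 30 min, sorting left out cells that stained for Ter119, F4/80, CD31 or CD45, and 30 ng of RNA per sample was amplified to cDNA before library preparation and sequencing as read pairs of 100 bases. Amplification adds spread, and counts carry no molecule tags. Per the submitters' processing notes, STAR 2.4.2a and HTSeq (no version stated) were used with mm10. The sources used here name neither the annotation nor the strand setting. The authors deposited whole-number counts per gene symbol, in 1 table of 30743 rows and 12 columns, each matched to a sample by its title.

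Genes were tested with edgeR 4.0.16 (R 4.3.3): TMM scaling, filterByExpr by group, a robust quasi-likelihood fit, a 2-sided F test, p-values adjusted by Benjamini-Hochberg over every gene in the fit, and a threshold of 0.05. A fit in 3 genotype groups held 13575 genes and a fit in 4 title groups 15303. All groups of a fit share 1 estimate of the spread. The SE is the absolute log2 change over the square root of F. DESeq2 1.42.0, limma 3.58.1 (voom), no filter, other scaling, fewer groups, a replicate block and leaving out libraries were alternatives. A GC correction, and leaving out libraries of groups not compared, were added after seeing the data. The edgeR test was tested on simulated data with known changes. No libraries of a group agreed within sampling noise (lowest chi-square per degree of freedom 15.1). Floors cover counting error only.

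Gene spans, exon lengths and GC content came from GENCODE vM21 (GRCm38, the same assembly as mm10), and 11911 of 13575 tested genes (87.7%) had a GC value. The GC correction fits a loess of each library's log2 deviation on GC, and corrected values were rescaled to the median level of plain CPM. Promoter windows came from RefSeq GRCm38.p6, and all 8 claudins matched by symbol. The claudins, gene lists, tests and alternatives were chosen with earlier results of these data known. The rule named all 8 claudins, other claudins with a mean of at least 1 CPM, up to 4 called genes per partner list with the smallest p, and the genes nearest to each claudin in pattern. Replicate numbers were not taken as pairs.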

Additional observations from a re-analysis of the deposited data

Results flagged for a closer look

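In 16 groups of claudin values checked for a library far from the rest, 3 stood out, all from sgSik1 replicate 1 among the 5 Sik-targeted libraries. Cldn3 was 271 CPM there, with the next library at 83.8 CPM. Cldn4 was 76.2 CPM, with the next at 32.4 CPM. Cldn7 was 127 CPM, with the next at 45.1 CPM. Chance flags about 1 in 20 groups, and these 3 share 1 library, so they are not independent. This library had a GC dependence of 2.50 (log2, the 20% of genes with the highest minus the 20% with the lowest GC), against -0.64 to 0.46 in the others, and transcript GC contents of these claudins were 62.7%, 56.8% and 57.0%. After GC correction the values in sgSik1 replicate 1 were 75.4 CPM for Cldn3, 35.7 CPM for Cldn4 and 58.5 CPM for Cldn7.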

How the results depend on the processing

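Of 888 log2 changes of claudins under alternatives, 834 stayed on the same side of the threshold, 24 lost the call, 30 gained it, and 0 of the called ones changed sign. The number of claudins called, 1 in Lkb1-deleted against KT, was 0 with limma-voom, with only the 2 groups compared, with the replicate block and without KT replicates 2 and 3 together, 2 without a low-count filter, and 0 to 1 over single libraries left out. In Sik-targeted against KT it was 1, and 2 with DESeq2 or only the 2 groups compared, 4 without a low-count filter, 0 with the replicate block and without KT replicates 2 and 3 together, and 0 to 2 over single libraries left out. In sgSik1 against KT it was 0, and 1 with DESeq2 or only the 2 groups, 3 without a filter, and 0 to 1 over single libraries left out. In sgSik1-3 against KT it was 0, and 2 with DESeq2, without a filter or with only the 2 groups, 1 with GC-corrected offsets, and 0 to 2 over single libraries left out. In the other 2 comparisons it was 0 under every setting run. The cause of these shifts was not tested. Cldn2 passed in 6 of 20 alternatives with Lkb1 deletion (2.57, adjusted p = 0.139, with limma-voom) and in 10 of 20 with Sik targeting, where its log2 change stayed between 2.48 and 3.04.

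Same-numbered libraries did not deviate together (5 of 15 correlations over 0.1, range -0.313 to 0.221), so the replicate block is not a paired design. Under it Cldn2 had 3.56 (adjusted p = 0.174) with Lkb1 deletion and 3.04 (adjusted p = 0.0574) with Sik targeting, and genes called numbered 49 in Lkb1-deleted against KT, 1050 in Sik-targeted against KT, 10 in Lkb1-deleted against Sik-targeted, 254 in sgSik1 against KT and 126 in sgSik1-3 against KT. Over all genes 158 were called in Lkb1-deleted against KT, 553 with DESeq2, 846 without a filter, 259 GC-corrected and 3 without KT replicates 2 and 3. In Sik-targeted against KT 1679 were called, 2526 with DESeq2, 3654 without a filter and 98 without those KT libraries. In Lkb1-deleted against Sik-targeted 30 were called, 345 with DESeq2, 698 without a filter, 72 GC-corrected, 0 with only the 2 groups and 9 without those KT libraries. In sgSik1 against KT 588 were called, 1445 with DESeq2, 1783 without a filter, 1029 with only the 2 groups and 1 without those KT libraries. In sgSik1-3 against KT 443 were called, 1296 with DESeq2, 1440 without a filter, 1941 with only the 2 groups, 872 GC-corrected and 11 without those KT libraries. Depth limits Cldn1, at or near 3 counts in most libraries.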
